A study of Mus musculus with 4 samples.

Results

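MYC is a transcription factor of growth and proliferation that binds DNA as a dimer with its partner MAX. Transcripts of MYC and of the factors that pair with MAX or its relative MLX were examined in leukaemia stem cells, the cells of a leukaemia that can restart it, from bone marrow of C57BL/6 mice. KO and WT stand for the libraries labelled as coming from Rreb1-KO mice and from wild-type mice, where Rreb1 encodes a zinc-finger transcription factor tied to RAS signalling. All mice had leukaemia, and poly(A) RNA of 2 libraries per genotype was sequenced. The sources used here do not give the ages, the way the leukaemia was started, which part of Rreb1 was targeted and in which tissues, or whether a library holds 1 mouse or a pool. The design text calls the replicates biological. The genotype label of the second KO library names Rreb2, and the extraction text speaks of TAMs, so libraries were grouped by their titles. The members were chosen by symbol: Myc, Mycn, Max, Mxd1, Mxd3, Mxd4, Mxi1, Mnt, Mga and Mlx. Of these 10, 9 had a row among the 16442 of the deposited table, and Mycn was not analysed here.

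As background, MYC and MAX have a basic helix-loop-helix zipper, with which the dimer contacts the E-box sequence CACGTG in promoters and raises transcription, above all of genes of ribosome making and metabolism. The MXD proteins (encoded by Mxd1, Mxi1, Mxd3 and Mxd4) and MNT take the place of MYC beside MAX, bind the same sequence and bring in SIN3 and histone deacetylases, which lower transcription. MGA joins MAX to a Polycomb complex, PRC1.6, that keeps germline genes silent. MLX resembles MAX, pairs with some of the antagonists and with the glucose-sensing Mondo proteins (encoded by Mlxip and Mlxipl), and so forms a parallel arm. In blood formation MYC is high in proliferating progenitors, while MXD1 comes on as granulocytes mature.

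The E-box was itself found in the promoters of several members. RefSeq promoter windows (GRCm38.p6, 250 bases before to 50 after a start site) were at hand for 9 of the 10 listed members, in 11 windows, and for Myc none was. CACGTG, which reads the same on both strands, lay in the windows of 4 of these 9 members (Max, Mlx, Mnt and Mxd4), while 7.15% of all 32851 windows held it. Here and for the RREB1 motif below, members are counted as genes with a match in any of their windows. The share over all is counted by single windows, so the units differ. The matches are shown with 12 bases on either side, in the direction of the gene, with the E-box in capitals. They lie at chr12:76962234-76962263 on the minus strand for Max, at chr11:101087238-101087267 on the plus strand for Mlx, at chr11:74830789-74830818 on the plus strand for Mnt and at chr5:34187912-34187941 on the minus strand for Mxd4.
Max: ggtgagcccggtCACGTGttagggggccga
Mlx: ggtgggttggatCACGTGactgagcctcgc
Mnt: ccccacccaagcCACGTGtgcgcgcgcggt
Mxd4: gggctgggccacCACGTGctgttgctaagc
Counted from the start site as position 0, the match begins at -3 in Max, at -40 in Mlx, at -123 in Mnt and at -219 in Mxd4. Outside the E-box the 4 stretches differ, and the distances run from across the start site to near the far end of the window. For Mxd4, all 240 bases of the window that lie upstream of every annotated start of the gene (chr5:34187721-34187960, minus strand) are given to show the E-box in its wider setting.
Mxd4 upstream: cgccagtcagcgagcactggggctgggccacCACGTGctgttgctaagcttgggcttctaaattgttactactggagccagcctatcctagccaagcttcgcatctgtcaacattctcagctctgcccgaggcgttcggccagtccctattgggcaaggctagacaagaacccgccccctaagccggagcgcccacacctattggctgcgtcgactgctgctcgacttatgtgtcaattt
No E-box was in the windows of Mxd1, Mxd3, Mga, Mycn and Mxi1 (3 windows). A stretch of the longer motif known for RREB1, ACCACCC, was searched on both strands as well: 0 of the 9 members had it, against 4.61% of all windows, which says only that these letters are not in those windows.

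Before the members, the libraries themselves were checked. The libraries held 16590830 to 18451251 assigned reads. Rreb1, the targeted gene, had 6.10 and 6.93 FPKM in the KO libraries, against 5.24 and 6.57 FPKM in the WT libraries. The groups overlapped, and the log2 difference was 0.13 (95% interval -0.20 to 0.45, limma adjusted p = 0.616), with -0.013 without WT replicate 1 and 0.27 without WT replicate 2. Rreb1 transcripts were thus not seen to be lower in the libraries labelled KO, the loss of Rreb1 could not be checked from them, and every direction below goes by the labels alone. Among genes of leukaemia stem and progenitor cells, all 13 listed were detected, with Hoxa9 at 31.8 to 35.8 FPKM in KO and 28.9 to 30.4 FPKM in WT, and 0 rose and 0 fell. Kit was higher in KO (7.15 to 7.36 FPKM in KO and 3.65 to 4.25 FPKM in WT, limma adjusted p = 0.051), while Cd34 (mean 50.2 FPKM in KO and 69.9 FPKM in WT, limma adjusted p = 0.065) and Flt3 (mean 18.6 FPKM in KO and 27.2 FPKM in WT, limma adjusted p = 0.069) were lower, and limma-voom called Kit higher and Cd34 and Flt3 lower (adjusted p = 6.1e-04, 0.0076 and 0.0058). Itgam, also on the list, had 11.5 and 19.5 FPKM in KO, against 7.93 and 7.63 FPKM in WT (limma adjusted p = 0.133). Limma-voom called Itgam higher (adjusted p = 0.0093), as it did 4.41% of all genes. Marker lists of other marrow cells were set against the 0.603% of all tested genes that rose and the 0.408% that fell. Of 14 mature neutrophil genes 10 rose, 0 fell and 4 did not pass, and their summed level was 3369 and 4064 FPKM in KO against 1440 and 1471 FPKM in WT. Of 7 erythroid genes tested, 5 rose (summed level of the 10 listed 423 and 515 FPKM in KO, 96.4 and 85.2 FPKM in WT), while 4 of 8 macrophage genes tested fell (10 genes with a row, 283 and 278 FPKM in KO, 327 and 366 FPKM in WT), 3 of 7 monocyte genes fell (8 genes, 817 and 890 FPKM in KO, 874 and 763 FPKM in WT) and 3 of 5 B cell genes fell (137 and 120 FPKM in KO, 225 and 216 FPKM in WT). Of 7 T and NK cell genes tested 0 rose and 0 fell (10 genes, 442 and 375 FPKM in KO, 308 and 370 FPKM in WT), and of 6 basophil, mast cell and eosinophil genes 1 rose and 2 fell (7 genes, 541 and 533 FPKM in KO, 633 and 745 FPKM in WT). The median log2 differences of the tested genes were -0.64 for T and NK cells and 0.35 for basophils, mast cells and eosinophils. Each was opposite in direction to the summed level. For the monocyte genes the median was -0.65, while their summed level overlapped between the groups. Of these lists, all genes with a row were above 0 in every library, and Marco, Ms4a1 and Pax5 were among the markers not analysed here. In bulk RNA of this kind, fewer cells of a type and less RNA per cell cannot be told apart.

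Myc was by far the most abundant network transcript in both genotypes. Levels are FPKM, which is per kilobase of exon and so can be set side by side between genes. Exon length counts all annotated exons of a gene, so the level of a gene expressed in a shorter form is understated. This limit applies to the order of the members and to ratios between them. Myc (ENSMUSG00000022346.15, GRCm38 chromosome 15, 61985391 to 61990374, plus strand) averaged 144 ± 16.7 FPKM in KO and 170 ± 0.269 FPKM in WT (SD, n = 2 each), and ranked 402nd of the table's 16442 genes in KO and 327th in WT. Mlx came second, at 43.5 ± 3.51 FPKM in KO and 46.3 ± 0.422 FPKM in WT. Mxd3 followed, at 13.1 ± 0.0840 FPKM in KO and 10.9 ± 1.11 FPKM in WT. All other members averaged under 8 FPKM in either genotype, down to Mga at 3.18 ± 0.0532 FPKM in KO and 2.61 ± 0.382 FPKM in WT. MAX, the obligate partner of MYC, was thus encoded by a transcript with a level far below that of Myc: the ratio of Myc to Max FPKM was 26.3 and 22.4 in the KO libraries and 22.6 and 20.4 in the WT libraries, and these ranges overlapped.

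**Figure D1:**
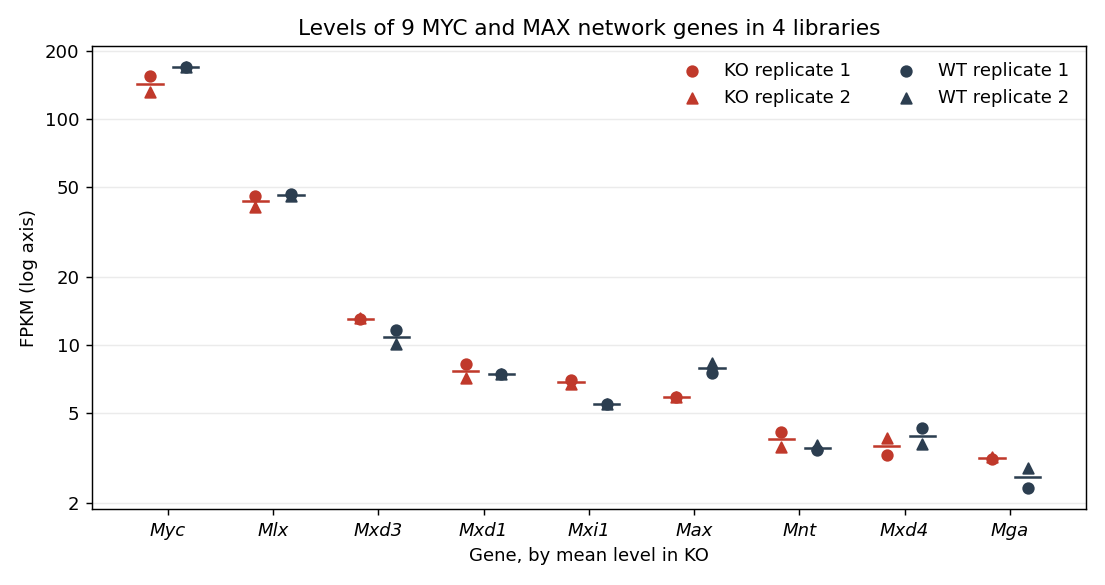
FPKM (log axis) of the 9 network genes with a row, in order of mean level in KO. Red symbols left of each tick are the KO libraries and dark symbols right of it the WT libraries, circles are replicate 1 and triangles replicate 2, and short lines are group means. Myc lies at 132 to 171 FPKM in all 4 libraries and Mlx at 41.0 to 46.6, and KO symbols lie wholly to 1 side of WT symbols for Myc, Max, Mxi1, Mxd3, Mga and, by a narrow gap, Mlx.

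The order of the members by level was the same in both genotypes down to Mxd3 and differed after it. In KO the order after Mxd3 was Mxd1, Mxi1, Max, Mnt, Mxd4 and Mga, and in WT it was Max, Mxd1, Mxi1, Mxd4, Mnt and Mga. Max thus held rank 6 of the 9 in KO and rank 4 in WT. In KO, Mnt (3.55 and 4.14 FPKM) overlapped Mxd4 (3.28 and 3.90 FPKM), so their order could not be told. Some other neighbours were apart by narrow gaps only. In KO the highest Mxi1 library (7.07 FPKM) lay just under the lowest Mxd1 library (7.17 FPKM). The highest Mga library (3.22 FPKM) lay just under the lowest Mxd4 library (3.28 FPKM). In WT the highest Mxd1 library (7.50 FPKM) lay just under the lowest Max library (7.52 FPKM). The highest Mnt library (3.62 FPKM) lay just under the lowest Mxd4 library (3.66 FPKM).

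Between genotypes, no member passed the test. Among the 9 members 0 rose and 0 fell in KO (limma on log2(FPKM + 1), Benjamini-Hochberg adjusted p below 0.05 over 11768 genes), while of all tested genes 0.603% rose and 0.408% fell. At an unadjusted p below 0.05, 2 members were higher (Mxi1 and Mxd3) and 1 was lower (Max), against 11.4% and 9.35% of all tested genes. With limma-voom on recovered reads 0 members were called as well, where 4.41% of genes rose and 2.99% fell, and at an unadjusted p below 0.05 it gave 2 members as higher (Mxi1 and Mga) and 2 as lower (Max and Myc), against 14.2% and 10.5% of genes. KO and WT libraries did not overlap for 6 members, 3 higher and 3 lower in KO, and this held for 55.3% of all tested genes, so that share is close to the background. The median log2 difference of the members was 0.03, and that of all tested genes was 0.03. All directions given for the members below are therefore descriptions of these 4 libraries.

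**Figure D2:**
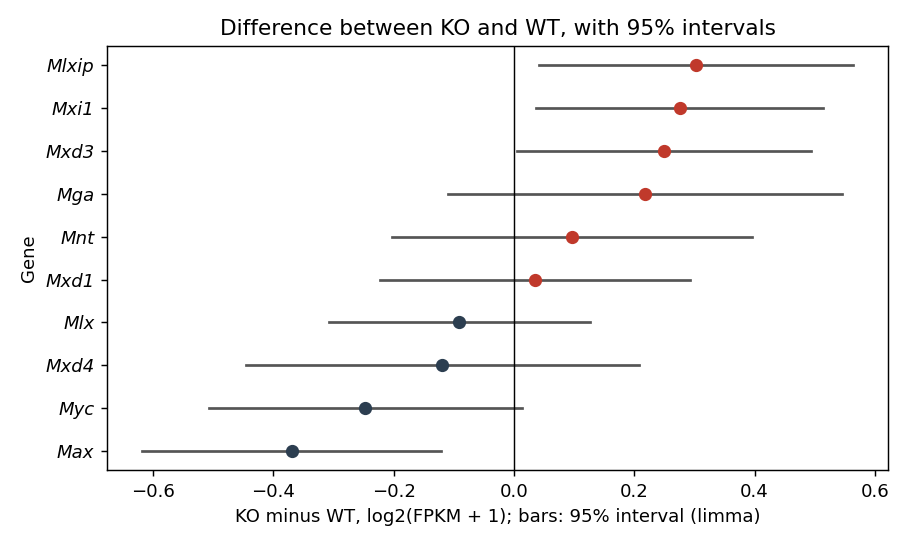
KO minus WT difference on the log2(FPKM + 1) scale for the 9 members and Mlxip, ordered by size, with limma's 95% intervals as bars. Red points are above 0 and dark points below. Intervals of Max, Mxd3, Mxi1 and Mlxip exclude 0 before adjustment over all genes, and none passes after it.

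The activator and its partner had lower values in KO libraries, short of the test's threshold. Myc had 156 and 132 FPKM in the KO libraries, against 170 and 171 FPKM in the WT libraries, from 7792 and 6111 reads against 8531 and 7688 reads. The WT libraries lay close together, and KO replicate 2 was the lowest of the 4. The log2 difference was -0.25 (SE 0.11, 95% interval -0.51 to 0.01, limma adjusted p = 0.257), and it was -0.13 without KO replicate 2. Max (ENSMUSG00000059436.13, chromosome 12, 76937269 to 76962201, minus strand) had 5.93 and 5.91 FPKM in the KO libraries, against 7.52 and 8.38 FPKM in the WT libraries, from 393 and 362 reads against 499 and 500 reads. Both KO libraries were below both WT libraries, by more than the gap between replicates of either group. The log2 difference was -0.37 (SE 0.10, interval -0.62 to -0.12, unadjusted p = 0.0107, limma adjusted p = 0.147), and it lay between -0.44 and -0.30 with each library left out in turn. The adjusted p of Max was 0.083 by limma-voom. Values cover all annotated transcripts of the gene together, so forms of Max cannot be told apart.

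Among the antagonists, Mxi1 and Mxd3 had higher values in KO libraries, again short of the threshold. Mxi1 (chromosome 19, 53310518 to 53375810, plus strand), which encodes a MXD protein found in resting and differentiating cells, had 7.07 and 6.72 FPKM in KO, against 5.51 and 5.52 FPKM in WT. The gap between the groups exceeded that within either, and the log2 difference was 0.28 (SE 0.098, 95% interval 0.04 to 0.51, limma adjusted p = 0.200). Mxd3 (chromosome 13, 55325168 to 55329823, minus strand), unusual among MXD genes in being expressed in dividing cells, had 13.1 and 13.2 FPKM in KO, against 11.7 and 10.1 FPKM in WT. The KO libraries nearly coincided while the WT libraries were further apart, and the log2 difference was 0.25 (SE 0.10, interval 0.0045 to 0.49, limma adjusted p = 0.236). It was 0.15 without WT replicate 2.

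Mxd1, the MXD gene most tied to granulocyte maturation, did not separate the genotypes. It had 8.28 and 7.17 FPKM in KO, against 7.50 and 7.49 FPKM in WT, so that the WT libraries lay between the KO libraries. The log2 difference was 0.03 (95% interval -0.22 to 0.29, limma adjusted p = 0.873), and it turned to -0.06 without KO replicate 1 and was 0.13 without KO replicate 2. In the same libraries 10 of 14 mature neutrophil genes rose, and a tie between them and Mxd1 was not tested. Mxd4, another MXD gene of differentiating and resting cells, had 3.28 and 3.90 FPKM in KO, against 4.30 and 3.66 FPKM in WT. The groups overlapped, with a log2 difference of -0.12 (interval -0.45 to 0.21, limma adjusted p = 0.641). That difference was -0.022 without KO replicate 1 and -0.026 without WT replicate 1, but -0.22 without KO replicate 2 and -0.21 without WT replicate 2. Together the 4 MXD genes summed to 31.7 and 31.0 FPKM in KO, against 29.0 and 26.8 FPKM in WT. Mxd3 was the largest part of that sum, at 41.2% and 42.6% in KO against 40.3% and 37.8% in WT, and Mxd4 least, at 10.3% and 12.6% in KO against 14.8% and 13.7% in WT.

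Mnt and Mga, which encode larger MAX partners, were among the least abundant members. Mnt, a broadly expressed antagonist, had 4.14 and 3.55 FPKM in KO, against 3.43 and 3.62 FPKM in WT. These values overlapped (log2 difference 0.10, 95% interval -0.20 to 0.40, limma adjusted p = 0.682), and the difference was 0.0083 without KO replicate 1 and 0.18 without KO replicate 2. Mga had 3.14 and 3.22 FPKM in KO, against 2.34 and 2.88 FPKM in WT, from 888 and 841 reads against 661 and 732 reads. Both KO libraries were above both WT libraries, with WT replicate 1 the lowest. The log2 difference was 0.22 (interval -0.11 to 0.54, limma adjusted p = 0.393), and without WT replicate 1 it was 0.11.

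In the MLX arm, Mlx itself had slightly lower values in KO libraries and did not pass the test. Mlx (chromosome 11, 101087277 to 101092207, plus strand) had 46.0 and 41.0 FPKM in KO, against 46.6 and 46.0 FPKM in WT. KO replicate 1 lay just under the lower WT library, and the log2 difference was -0.09 (95% interval -0.31 to 0.13, limma adjusted p = 0.587). It was -0.17 without KO replicate 1 and -0.010 without KO replicate 2. Mlxip, which encodes the Mondo protein MondoA and is no member of the list, had 7.18 and 8.14 FPKM in KO, against 6.21 and 5.81 FPKM in WT. Its KO libraries were both higher (log2 difference 0.30, interval 0.04 to 0.56, limma adjusted p = 0.200), and the call was not made by limma-voom either (adjusted p = 0.079). Mlxipl, for the other Mondo protein, rested on 3 and 0 reads in KO and 1 and 2 reads in WT, and Mycl, a further MYC paralog, was at 0.215 and 0.233 FPKM in KO and 0.389 and 0.299 FPKM in WT, both below the level needed for a test. Exons of Mlx share 385 bases with Psmc3ip on the other strand, those of Mxd3 105 bases with Prelid1, and those of Mxi1 and Mxd4 194 and 514 bases with gene models not analysed here, and reads from such stretches cannot be assigned with certainty.

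Ratios within a library summed these differences. The FPKM of the antagonist genes Mxd1, Mxd3, Mxd4, Mxi1, Mnt and Mga summed to 39.0 and 37.7 in KO, against 34.8 and 33.3 in WT. Myc exceeded that sum by a ratio of 3.996 and 3.498 in KO, against 4.89 and 5.12 in WT. The ranges did not overlap, with the KO libraries lower. The ratio of Mlx to Max was 7.75 and 6.94 in KO, against 6.20 and 5.49 in WT, again without overlap and with the KO libraries higher. The ratios were not tested, since they were formed from members with values already known, and transcript ratios do not give those of the proteins.

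**Figure D3:**
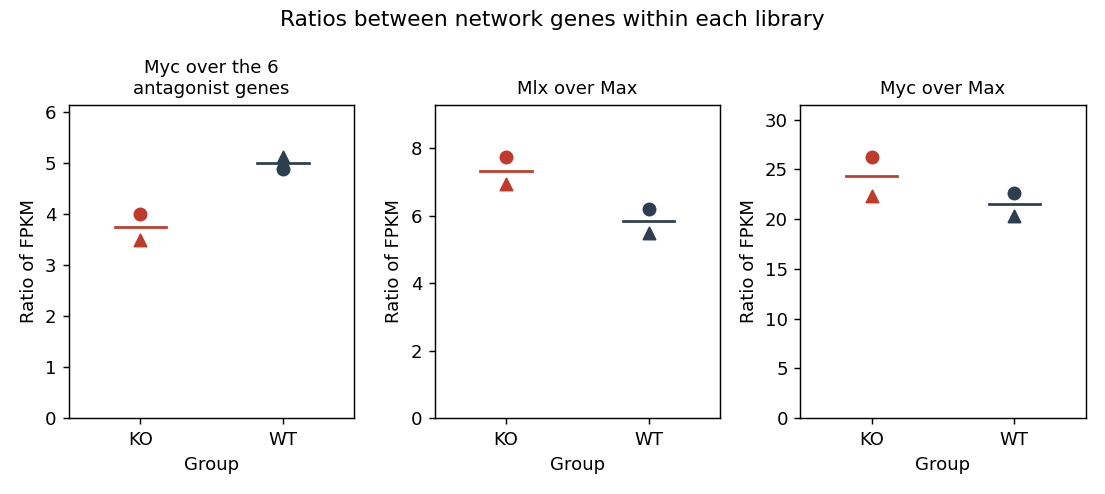
Ratios of FPKM within each library: Myc over the sum of 6 antagonist genes (left), Mlx over Max (middle) and Myc over Max (right), with KO left of WT in each panel, circles for replicate 1, triangles for replicate 2 and lines for group means. The first ratio is 3.498 to 3.996 in KO and 4.89 to 5.12 in WT, while the ranges of Myc over Max overlap.

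Genes that MYC activates had mostly lower values in KO libraries, and none passed the test. The list was chosen with earlier results of these data known, so its shares describe these libraries and do not test for an excess. It holds 57 genes of textbook standing for nucleolar function, metabolism and the cell cycle, and 56 were tested. Of these 0 rose, 0 fell and 56 did not pass, against 0.603% and 0.408% of all tested genes, and 3 were higher and 15 lower at an unadjusted p below 0.05 (26.8% lower, against 9.35% of all tested genes). Limma-voom on recovered reads called 1 higher (Cdc25a) and 4 lower (Dkc1, Hspd1, Shmt2 and Grwd1), where it called 4.41% of all genes higher and 2.99% lower, and Cdc25a and Grwd1 were named after their values were seen. For 29 genes both KO libraries were under both WT libraries (51.8%, against 24.9% of all tested genes) and for 7 they were above (12.5%, against 30.5%). The median log2 difference was -0.13, beside 0.03 over all tested genes, and with each library left out in turn it ran from -0.15 to -0.12. The background differs by level. With the filter at 5 FPKM, 2 of 52 list genes were higher and 16 lower at an unadjusted limma p below 0.05. Of all 7051 genes passing that filter, 815 were higher and 919 lower. The medians were then -0.14 in the list and -0.017 over all genes. The 15 lower genes became 4 without KO replicate 2 or WT replicate 1 and 8 without WT replicate 2, in fits with fewer samples. CACGTG was in a promoter window of 16 of the 46 tested genes of the list that had one. The share over all genes was not computed.

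The 4 activated genes with the smallest p were all lower in KO. Dkc1, for the dyskerin of RNA pseudouridylation and telomerase, had 31.9 and 33.7 FPKM in KO, against 43.6 and 46.2 FPKM in WT (log2 difference -0.44, SE 0.083, limma adjusted p = 0.080). Hspd1, the mitochondrial chaperonin HSP60, had 101 and 88.8 FPKM in KO, against 133 and 140 FPKM in WT (log2 difference -0.52, limma adjusted p = 0.081). In both genes the KO libraries stood well apart from the WT libraries. Shmt2, a mitochondrial enzyme of serine and folate metabolism, had 111 and 97.9 FPKM in KO, against 139 and 131 FPKM in WT (limma adjusted p = 0.135), and Wdr74, a ribosome assembly factor, had 36.5 and 37.4 FPKM in KO, against 47.1 and 44.1 FPKM in WT (limma adjusted p = 0.144). The direction was not shared by all, since the replication gene Mcm4, chosen after its values were seen, had 49.6 and 49.4 FPKM in KO, against 41.0 and 41.3 FPKM in WT. The rise of neutrophil and erythroid markers in the same KO libraries stood beside this list, and its part in the list's differences was not tested.

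Genes listed as repressed by MYC did not go 1 way, with 6 log2 differences above 0 and 7 below. Of 13 tested 0 rose, 0 fell and 13 did not pass, 4 were higher and 1 lower at an unadjusted p below 0.05, against 11.4% and 9.35% of all tested genes, and the median log2 difference was -0.03, which turned to 0.0021 without KO replicate 1 and 0.041 without WT replicate 1. Cdkn1b, for the cell cycle inhibitor p27, had 5.70 and 6.00 FPKM in KO, against 3.46 and 3.34 FPKM in WT. The difference was wider than in any member of the network, at 0.64 on the log2 scale (SE 0.11, limma adjusted p = 0.065), and limma-voom called it higher (adjusted p = 0.0074), as it did 4.41% of all genes. Cdkn2a, for the inhibitors p16 and p19ARF, was the 1 lower gene, with 7.97 and 9.16 FPKM in KO, against 12.4 and 12.1 FPKM in WT (log2 difference -0.47, limma adjusted p = 0.104). Its value covers the transcripts of both inhibitors together, so they cannot be told apart. Whether MYC represses either of them in these cells was not tested. Gadd45b and Ndrg2, stress and growth arrest genes, had log2 differences of 0.36 and 0.29 (limma adjusted p = 0.112 and 0.207).

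**Figure D4:**
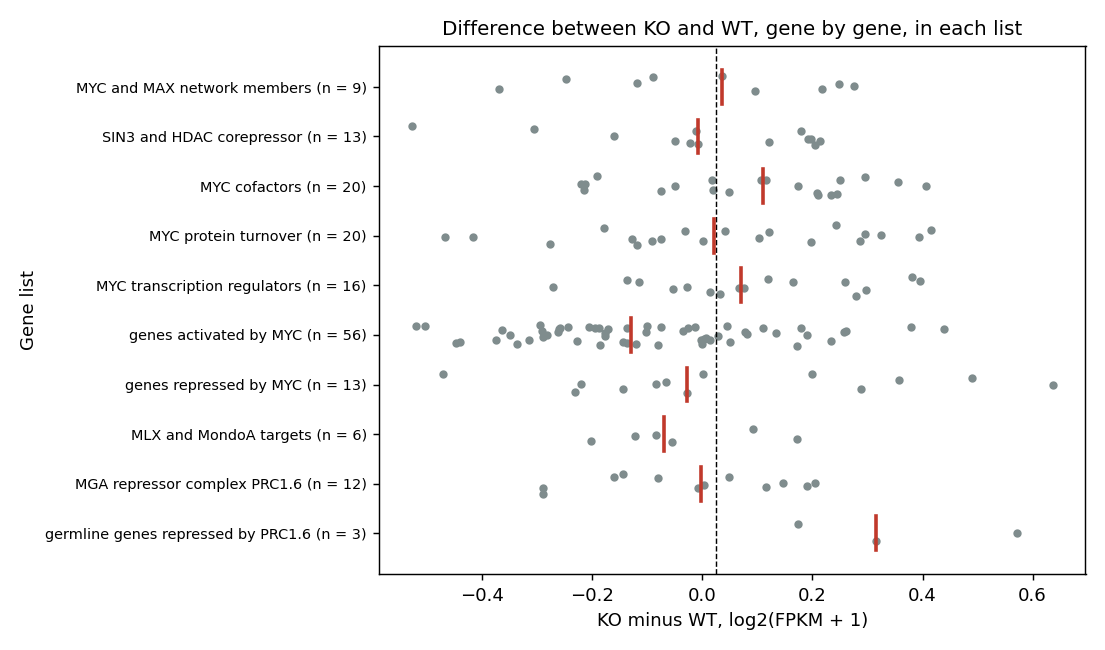
KO minus WT difference on the log2(FPKM + 1) scale for each tested gene (grey points, spread vertically at random) of the members and of the pathway lists with at least 3 tested genes. Red bars are list medians and the dashed line is the median of all tested genes, 0.03. The median of the genes activated by MYC is -0.13, and points of every list but that of 3 germline genes fall on both sides of 0.

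Cofactors and regulators of MYC gave no calls by limma. Of 20 cofactors 0 rose and 0 fell, 5 were higher and 1 lower at an unadjusted p below 0.05, against 11.4% and 9.35% of all tested genes, and the median was 0.11. The largest of those named by p were Bptf, of the NURF remodelling complex (6.02 ± 0.952 FPKM in KO and 4.29 ± 0.594 FPKM in WT, SD, n = 2 each), and Ep300, a histone acetyltransferase (6.44 ± 0.707 FPKM in KO and 4.80 ± 0.397 FPKM in WT), with log2 differences of 0.41 and 0.36 and limma adjusted p = 0.200 and 0.191. Limma-voom called both higher (adjusted p = 0.036 and 0.037), and 4.41% of all genes with them. Zbtb17, for MIZ1, through which MYC represses genes, had 14.7 and 14.9 FPKM in KO, against 11.3 and 12.4 FPKM in WT (limma adjusted p = 0.168), and Paf1, of the elongation complex of that name, was at 0.25 on the log2 scale (limma adjusted p = 0.191).

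Of 20 genes for the turnover of MYC protein 0 rose and 0 fell, with 2 higher and 2 lower at an unadjusted p below 0.05, shares near the 11.4% and 9.35% of all tested genes, and a median of 0.02. The lower ones were Aurka and Set. Aurka, the mitotic kinase Aurora A, had 69.8 and 56.5 FPKM in KO, against 86.1 and 88.4 FPKM in WT (log2 difference -0.47, limma adjusted p = 0.126). Set, an inhibitor of the phosphatase PP2A, had 132 and 114 FPKM in KO, against 155 and 173 FPKM in WT (log2 difference -0.42, limma adjusted p = 0.140). Limma-voom called both lower (adjusted p = 0.019 and 0.027), where 2.99% of all genes were. On the higher side was Ppp2r5a, a PP2A subunit that directs the phosphatase to MYC, with 9.93 and 11.1 FPKM in KO against 8.34 and 8.36 FPKM in WT (log2 difference 0.30, limma adjusted p = 0.185).

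Among 16 tested regulators of Myc transcription 0 rose and 0 fell, with 3 higher and 1 lower at an unadjusted p below 0.05, against 11.4% and 9.35% of all tested genes. Myb, a driver of progenitor growth, had 33.4 and 36.5 FPKM in KO, against 26.1 and 30.5 FPKM in WT (log2 difference 0.30, limma adjusted p = 0.199), a direction opposite to that of Myc. E2f1 and Smad3 were at 0.26 and 0.38 and E2f4 at -0.27 (limma adjusted p = 0.185, 0.190 and 0.185).

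The corepressors of the antagonists gave no calls by limma either. Of 13 tested SIN3 and HDAC genes 0 rose and 0 fell, with 0 higher and 2 lower at an unadjusted p below 0.05, against 11.4% and 9.35% of all tested genes, and the median log2 difference was -0.01. Rbbp7, a histone-binding subunit, had 73.8 and 66.2 FPKM in KO, against 86.8 and 86.6 FPKM in WT (log2 difference -0.31, limma adjusted p = 0.158). Sap30, a SIN3-associated protein gene, had 37.0 and 39.7 FPKM in KO, against 71.3 and 43.5 FPKM in WT, so that WT replicate 1 stood apart from the other libraries (log2 difference -0.53, limma adjusted p = 0.240). Arid4a and Sap18 had log2 differences of 0.20 and 0.19 (limma adjusted p = 0.266 for each).

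In the complex that MGA forms with MAX, PRC1.6, 0 of 12 tested genes rose and 0 fell, and 0 were higher and 2 lower at an unadjusted p below 0.05, against 11.4% and 9.35% of all tested genes. These were Pcgf6, the subunit that defines the complex, with 3.39 and 3.20 FPKM in KO against 4.28 and 4.22 FPKM in WT, and the ubiquitin ligase Rnf2, with 9.68 and 9.76 FPKM in KO against 11.2 and 13.1 FPKM in WT (limma adjusted p = 0.220 and 0.201). Germline genes repressed by this complex were mostly not analysed here: 5 of 18 had a row and 3 were tested, of which 0 rose and 0 fell. Stag3, a meiotic cohesin gene, had 6.96 and 7.79 FPKM in KO, against 5.11 and 4.18 FPKM in WT (log2 difference 0.57, limma adjusted p = 0.108, limma-voom adjusted p = 0.011, a call it made for 4.41% of all genes in this direction). Zcwpw1 and Tex101 were at or under 1.5 FPKM in every library. Of 6 targets of MLX and MondoA, 0 rose, 0 fell and 0 had an unadjusted p below 0.05, and by limma-voom 0 were called. Txnip, the thioredoxin-binding target used as a readout of MondoA, was chosen after its values were seen and had 11.8 and 13.2 FPKM in KO, against 12.5 and 14.1 FPKM in WT, with the groups overlapping.

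Genes whose levels over the 4 libraries were most like those of Myc were found by the distance between centred log2(FPKM + 1) values among the 11768 tested genes. They were Rrp7a (distance 0.013), Jtb (0.016) and Tmem126a (0.016), each with WT libraries close together and KO replicate 2 lowest. Rrp7a, for instance, had 28.3 and 23.9 FPKM in KO, against 31.3 and 31.0 FPKM in WT. With 4 libraries many genes share such a profile, and it is given as a description. Bmyc, a MYC-related gene that was chosen after its values were seen, had 5.69 and 5.97 FPKM in KO, against 9.81 and 8.28 FPKM in WT. Its log2 difference of -0.55 (SE 0.11, limma adjusted p = 0.095; limma-voom adjusted p = 0.090) was larger than that of any member and did not pass the test.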

How the data were processed

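Poly(A) RNA of 2 KO and 2 WT libraries was sequenced. The submitters' processing notes name GRCm38, HISAT2 2.1.0, CASAVA, DESeq2 and featureCounts, without their roles. A single table was deposited by the authors, whose values behave as FPKM with 1 added: the lowest is exactly 1, and that 1 was subtracted. With GENCODE M21 exon lengths, 99.0% to 99.2% of values of up to 30 reads fell on whole reads (tolerance 0.05), which gave the depths and, for 15776 genes, the reads. How its 16442 genes were picked is not given in the sources used here.

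KO and WT were compared with limma 3.58.1 (R 4.3.3, trend form, two-sided) on log2(FPKM + 1) for the 11768 genes averaging 1 FPKM or more, with Benjamini-Hochberg adjustment over all of them and a threshold of 0.05. This scale understates changes of low genes. An exact permutation test of 2 against 2 cannot reach 0.05, so p-values rest on the spread limma shares between genes. They set each group difference against the spread between these libraries, which may be single mice or pools. Log2 differences are KO minus WT. The procedure was tested on simulated data, with the same spread beyond counting error set for every gene. That run does not measure how small a change of a member could have been found.

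Members and lists were chosen with earlier results of these data known. Named were all members, Rreb1, the other MAX network genes, up to 4 genes per list by smallest p and the 3 genes nearest to Myc; 1 gene that this rule names is not reported here. Alternatives were a pseudocount of 0.1, no filter, a filter at 5 FPKM, median-of-ratios scaling, limma-voom, a replicate block and leaving out each library.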

Additional observations from a re-analysis of the deposited data

How the results depend on the processing

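For the 9 members, 86 of 87 log2 differences under 10 alternatives kept their direction and their side of the threshold. The exception was Mxd1, which turned to -0.057 without KO replicate 1 (range up to 0.13 with 1 library left out), and Rreb1, which is no member, turned to -0.013 without WT replicate 1 (range up to 0.27). Leaving out the filter, filtering at 5 FPKM and adding the replicate block do not change the log2 difference itself. Those values thus kept their direction by construction, and only their p-values could move. Members called numbered 0 under every alternative. The lowest adjusted p of a member was 0.083 (Max, limma-voom, within a range up to 0.486 over its alternatives). Calls over all genes depended on the setting, from 71 higher and 48 lower to 22 and 10 without the filter on level, 108 and 82 with a mean of at least 5 FPKM, 501 and 340 by limma-voom, and 4 to 50 higher and 2 to 14 lower with 1 library left out. With the replicate number as a block they were 40 and 26. The deviations of same-numbered libraries had a correlation of 0.0090, so the numbers were not taken to pair the libraries. Mga, Mnt and Mxd4 gave no value with the filter at 5 FPKM. A library left out leaves 1 group with a single library, assumed to vary like the others. Medians of the genes activated and repressed by MYC were recomputed under each alternative after the data were seen, and that of the activated genes stayed between -0.15 and -0.12. Median-of-ratios scaling moved the median of all tested genes to 0.0046. Depth limits Mycl and Mlxipl most, at 0 to 29 reads, and a floor of 3 reads on 2 kb of exon lies at 0.0813 to 0.0904 FPKM, counting error alone.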
